A study of Mus musculus with 20 samples.

Results

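Acute phase proteins are plasma proteins that the liver makes at altered rates during inflammation, and 38 genes of such proteins and of their receptors and regulators were listed here by symbol. Of these, 35 genes had a probe set that the platform annotation pairs with a single symbol, out of 18193 genes with such a probe set, and the probe set with the highest mean signal over the 20 arrays stood for each gene. All 35 were among the 11206 genes kept by a filter on dim probe sets. C4b and Trf lie only on probe sets annotated with several symbols, C3 had none that could be used, and these 3 were not analysed here.

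The material was liver of male C57BL/6J mice that had been kept under long-term 137Cs gamma irradiation from 8 weeks of age, and livers were taken immediately after irradiation ended. Experiment 2 ran for 401 days at 0.05 (low), 1.00 (medium) or 20.0 mGy per day (high), which gave total doses of 20, 401 and 8015 mGy. Experiment 1 ran for 485 days at 0.042 (low), 0.858 (medium) or 16.6 mGy per day (high), with totals of 20.6, 416 and 8030 mGy. In each experiment 3 mice per dose level were arrayed singly. The unirradiated control was a single array in either experiment, carrying the combined liver RNA of 6 mice (experiment 2) or 3 mice (experiment 1). A pool shows no spread between control mice, so every comparison with control borrows its error from the irradiated mice and from the 2 pools together. Irradiation time, age at death and dose-rate all differ between the experiments and cannot be told apart. The sample labels name no laboratory run, so a difference in handling between the experiments cannot be separated from these either.

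Hepatocytes are the main source of acute phase proteins. Interleukin 6 acts on them through its receptor and STAT3, interleukin 1 acts through IL1R1 and NF-kB, and C/EBP factors bind many of the promoters concerned. Proteins whose plasma level rises are called positive acute phase proteins, and in mice serum amyloid A1 and A2 are the major ones, whereas albumin and transthyretin are negative acute phase proteins. Serum amyloids travel with high density lipoprotein, orosomucoids bind small lipophilic molecules, and lipocalin 2 (Lcn2) withholds iron from bacteria by binding their siderophores.

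Values are signal intensities on a linear scale that the authors scaled to a common level per array, with array medians from 81.34 to 104.8 and array maxima from 72508 to 100765. The number of arrays limits the precision, and signals of different probe sets cannot be ranked against each other. Mean signal exceeded 35000 for 12 of the 35 genes (Hp, Hpx, Cp, Fga, Fgb, Fgg, Itih4, Hamp, Ahsg, Ttr, Alb and Serpinc1) and so came near the top of the range of the arrays. Of 10 hepatocyte marker genes with a probe set, all 10 lay above the median probe set, and their summed signal ran from 344000 to 439000. The highest correlation between any 2 arrays was 0.943. In bulk liver, fewer cells of a type and less RNA per cell cannot be told apart.

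The serum amyloid A1 and A2 genes, the orosomucoid genes Orm2 and Orm3 and Lcn2 were the 5 secreted proteins whose signal varied most between mice of the same group. Their promoters are shown because all 5 genes were at least 2-fold above the pool in low mice 1 and 3 of experiment 1. Orm3 did not follow the others in every mouse. In high mouse 3 of experiment 1, Saa1, Saa2 and Lcn2 were at least 2-fold above the pool. Orm3 was at 19.72 there, against 247.1 in the pool. Each is the stretch of 250 bases before the annotated start, 5′ to 3′ on the gene's own strand, from RefSeq on GRCm38.p6. They lie at chr7:46742981-46743230 on the minus strand for Saa1, chr7:46751583-46751832 on the plus strand for Saa2, chr4:63362199-63362448 on the plus strand for Orm2, chr4:63355908-63356157 on the plus strand for Orm3 and chr2:32387740-32387989 on the minus strand for Lcn2. Capitals mark matches to a C/EBP-like motif, TTGCNNAA, and in Saa1 also the match to an NF-kB-like motif, GG, any 3 bases and TTTCC.
Saa1: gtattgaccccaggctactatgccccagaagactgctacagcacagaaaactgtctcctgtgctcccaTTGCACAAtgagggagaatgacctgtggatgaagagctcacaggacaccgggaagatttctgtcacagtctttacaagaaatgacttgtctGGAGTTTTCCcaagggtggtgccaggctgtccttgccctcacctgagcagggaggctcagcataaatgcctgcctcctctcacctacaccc
Saa2: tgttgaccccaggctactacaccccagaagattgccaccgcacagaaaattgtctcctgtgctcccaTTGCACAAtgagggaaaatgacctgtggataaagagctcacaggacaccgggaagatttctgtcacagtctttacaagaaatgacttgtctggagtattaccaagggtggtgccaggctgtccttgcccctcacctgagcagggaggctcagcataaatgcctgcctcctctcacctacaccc
Orm2: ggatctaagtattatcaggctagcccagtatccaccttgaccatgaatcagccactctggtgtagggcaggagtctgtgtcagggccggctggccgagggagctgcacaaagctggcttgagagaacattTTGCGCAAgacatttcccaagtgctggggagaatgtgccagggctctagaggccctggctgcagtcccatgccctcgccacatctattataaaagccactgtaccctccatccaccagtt
Orm3: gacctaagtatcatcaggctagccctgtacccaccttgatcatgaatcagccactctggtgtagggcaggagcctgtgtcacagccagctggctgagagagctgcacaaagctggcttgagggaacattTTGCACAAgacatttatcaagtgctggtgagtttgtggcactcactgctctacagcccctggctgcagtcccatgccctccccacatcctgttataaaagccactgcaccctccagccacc
Lcn2: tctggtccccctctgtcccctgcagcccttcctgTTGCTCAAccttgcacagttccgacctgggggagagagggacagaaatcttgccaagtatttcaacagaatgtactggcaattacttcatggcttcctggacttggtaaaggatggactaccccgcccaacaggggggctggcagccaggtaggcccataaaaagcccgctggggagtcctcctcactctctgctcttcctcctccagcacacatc

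All 5 of these promoters held the C/EBP-like letters, at 182 to 175 bases before the start in Saa1, 183 to 176 in Saa2, 120 to 113 in Orm2, 121 to 114 in Orm3 and 216 to 209 in Lcn2. The Saa1 and Saa2 promoters were identical at 238 of 251 aligned columns (94.8%), and those of Orm2 and Orm3 at 219 of 255 (85.9%). The NF-kB-like letters stood in Saa1 at 91 to 82 bases before the start and were not matched in the Saa2 window. Both strands were searched, in the RefSeq promoters of 29 of the 35 genes. TTGCNNAA was in 15 of these 29 and in 9.56% of 32851 promoters of all genes, the NF-kB-like motif in 3 of 29 (Saa1, Serpina3n and Steap4) and in 4.63%, and a STAT-like motif, TTCNNNGAA, in 7 of 29 (Apcs, Fga, Fgb, Hamp, Itih4, Socs3 and Steap4) and in 7.02%. The 2 matches marked in Saa1 do not overlap each other. A match is a string of letters and no measured binding site.

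Lcn2 had the largest spread within groups of the 35 genes, with an SD of 1.40 on the scale of log2(signal + 7.12) used throughout, at the 99.9th percentile of all genes kept. In experiment 2 the Lcn2 signal was 387.6 in the control pool, 126.2, 229.8 and 221.9 in the low mice, 1192, 184.1 and 594.7 in the medium mice, and 240, 201.8 and 442.5 in the high mice. In experiment 1 it was 415.5 in the control pool, 28490, 511.8 and 2149 in the low mice, 675.5, 455.5 and 1030 in the medium mice, and 883.1, 519.3 and 1388 in the high mice. Low mouse 1 of experiment 1 stood far above every other array, and the levels overlapped in each experiment.

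Saa2 signal in experiment 2 was 1324 in the control pool, 525.8, 1072 and 762.5 in the low mice, 2723, 615.8 and 1821 in the medium mice, and 1289, 844.2 and 1193 in the high mice. In experiment 1 it was 1366 in the control pool, 44500, 2395 and 5712 in the low mice, 1144, 1465 and 4050 in the medium mice, and 1569, 1455 and 3022 in the high mice. The highest mouse of experiment 2 was medium mouse 1 and that of experiment 1 was low mouse 1, as for Lcn2. Saa1 signal in experiment 2 was 5606 in the control pool, 2793, 6201 and 4426 in the low mice, 10560, 3644 and 6260 in the medium mice, and 4342, 3587 and 5227 in the high mice. In experiment 1 it was 4027 in the control pool, 53680, 6834 and 15420 in the low mice, 4225, 4299 and 11720 in the medium mice, and 5292, 5747 and 11940 in the high mice. All 9 mice of experiment 1 lay above their pool for Saa1, and 8 of 9 for Saa2. The probe set of Saa2 is of a type that several similar transcripts can share, so its signal and that of Saa1 may not be fully separate.

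Saa3, a serum amyloid also expressed by macrophages and adipocytes, had signals in experiment 2 of 665.3 in the control pool, 615.5, 926.1 and 672.7 in the low mice, 1048, 603.7 and 693.2 in the medium mice, and 603.5, 621 and 493.4 in the high mice. In experiment 1 the Saa3 signal was 731.4 in the control pool, 3732, 987.5 and 712.4 in the low mice, 842.6, 648.8 and 1124 in the medium mice, and 879.8, 636.5 and 1233 in the high mice. Low mouse 1 of experiment 1 stood apart from the other 19 arrays, which ran from 493.4 to 1233. Saa4, the serum amyloid that is made constitutively, was at 25270 in that mouse and between 8793 and 14640 on the other arrays.

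Orm2 signal in experiment 2 was 730.8 in the control pool, 192.7, 736 and 620.7 in the low mice, 995, 386.7 and 778.3 in the medium mice, and 312.6, 303.7 and 525.7 in the high mice. In experiment 1 it was 1116 in the control pool, 31270, 1143 and 2681 in the low mice, 844.4, 690.6 and 1576 in the medium mice, and 1158, 1113 and 1875 in the high mice. The 3 high mice of experiment 2 were all below their pool, whereas the high mice of experiment 1 lay around theirs. Orm3 signal in experiment 2 was 227 in the control pool, 66.33, 26.67 and 318.3 in the low mice, 116.4, 36.5 and 242.9 in the medium mice, and 119.1, 77.13 and 75.57 in the high mice. In experiment 1 the Orm3 signal was 247.1 in the control pool, 1752, 391.6 and 782.3 in the low mice, 234.1, 119.1 and 142.5 in the medium mice, and 223.2, 168.1 and 19.72 in the high mice. Several of these Orm3 values lie under the array medians, so its spread includes values not shown to be above background. Orm1 was at 50480 in low mouse 1 and between 27850 and 35600 on the other arrays of experiment 1.

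Socs3 and Il1r1 completed the 8 genes of largest spread. Socs3, the STAT3-induced inhibitor of interleukin 6 signalling, had signals in experiment 2 of 602.7 in the control pool, 615.7, 333.8 and 214.8 in the low mice, 1034, 173.3 and 206.8 in the medium mice, and 259.4, 493 and 212.4 in the high mice. In experiment 1 the Socs3 signal was 672.1 in the control pool, 1228, 616.5 and 357 in the low mice, 622.1, 201.9 and 562.4 in the medium mice, and 259.9, 394.3 and 423.7 in the high mice. All 6 high mice lay below the pool of their experiment, and the medium and low mice lay on either side. Il1r1, the signalling receptor for interleukin 1, had signals in experiment 2 of 463.9 in the control pool, 456.8, 522.3 and 363.5 in the low mice, 331.5, 274.7 and 294.3 in the medium mice, and 277.6, 311.4 and 146.3 in the high mice. In experiment 1 the Il1r1 signal was 366 in the control pool, 673.9, 182.5 and 441.6 in the low mice, 294, 335.8 and 476.9 in the medium mice, and 342.2, 312.6 and 294.9 in the high mice. Its 3 high mice and its 3 medium mice of experiment 2 all lay below the low mice of that experiment.

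**Figure D1:**
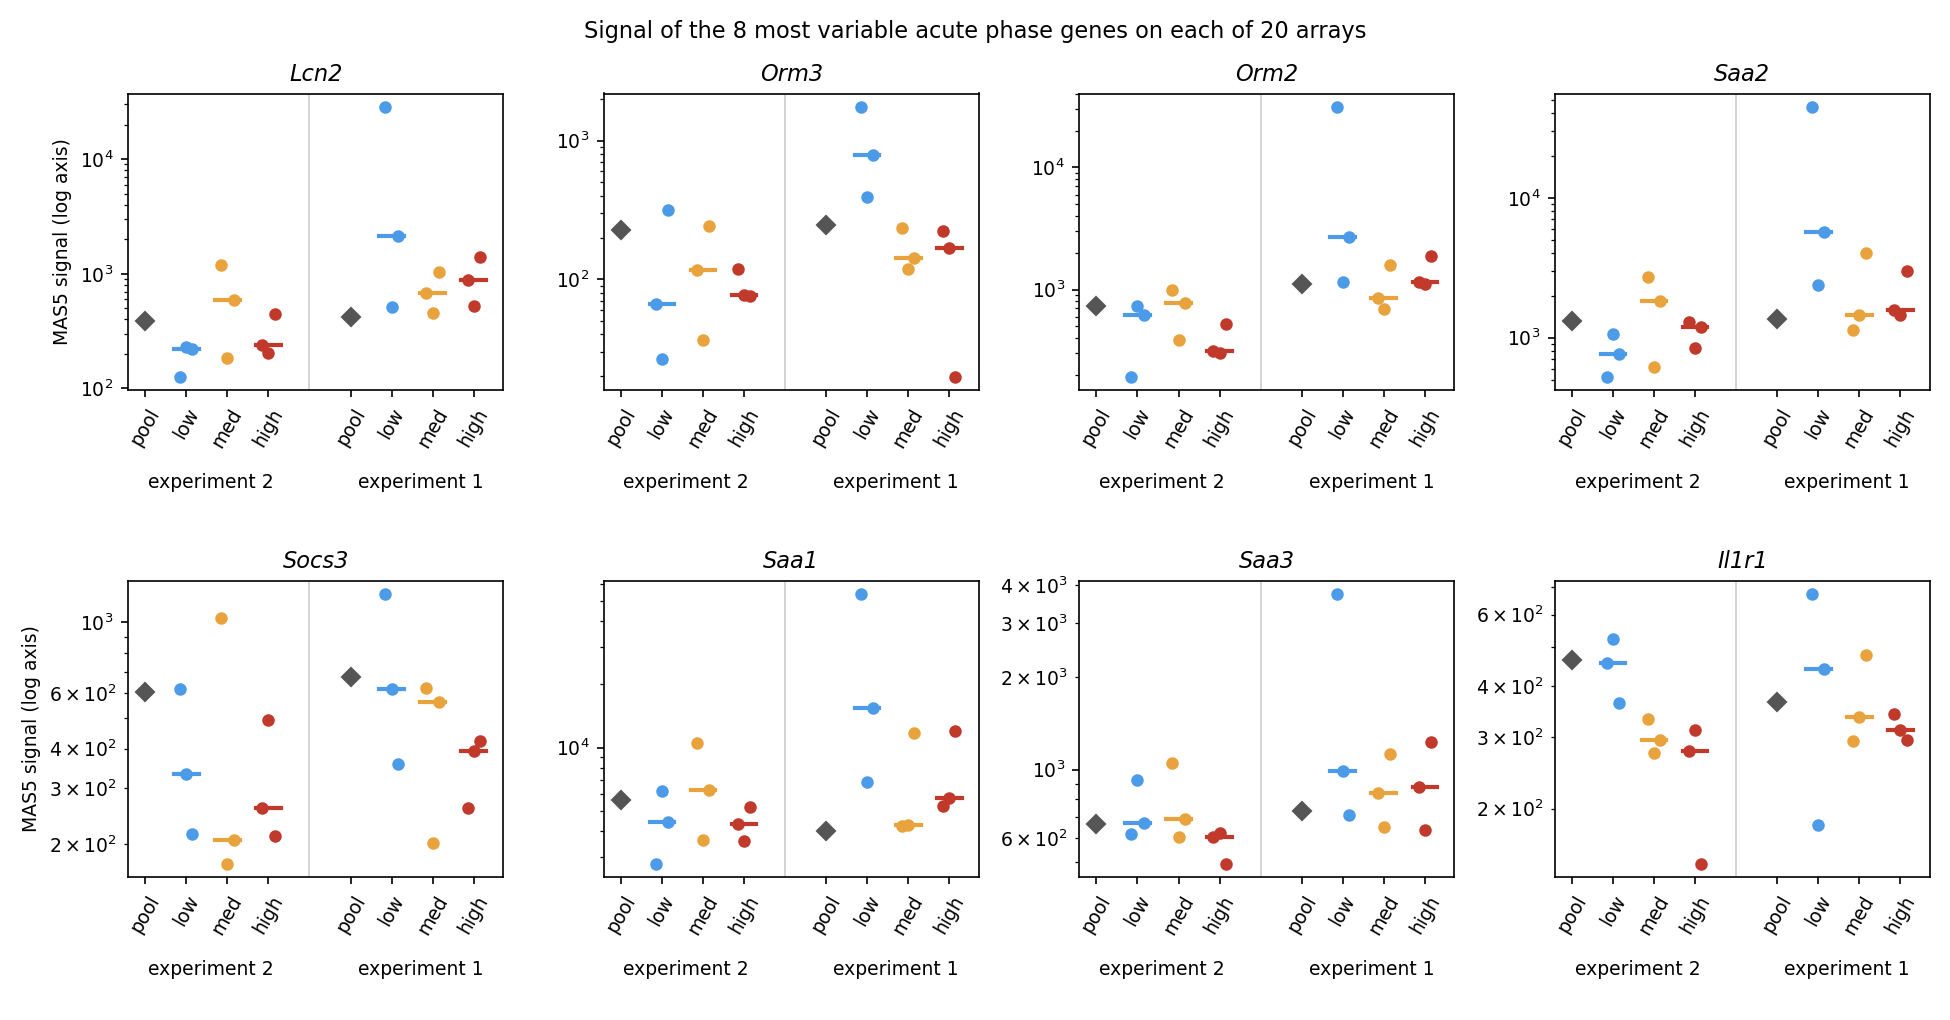
Signal intensity of the 8 acute phase genes with the largest spread within groups, on a log axis, for each of the 20 arrays by dose level and experiment. Diamonds are control pools, circles are single mice and bars are group medians. The point far above the others in the low group of experiment 1 is the same mouse for Lcn2 (28490), Saa2 (44500), Orm2 (31270) and Saa1 (53680).

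In low mouse 1 of experiment 1, the difference from the pool of its experiment was 6.08 for Lcn2 on the log2 scale, or 67.4-fold. It was 5.02 for Saa2, 4.80 for Orm2, 3.73 for Saa1, 2.79 for Orm3 and 2.34 for Saa3. Further differences were 1.66 for Steap4, a metalloreductase, 1.50 for Apcs, the pentraxin serum amyloid P, 1.46 for Serpina3n, a serine protease inhibitor, and 1.01 for Saa4. These 10 of 35 genes were at least 2-fold above the pool, against 3.69% of all genes kept in the same mouse. Differences under 2-fold in the same mouse included 0.87 for Il1r1, 0.86 for Itih3, an inter-alpha-inhibitor heavy chain, 0.86 for Socs3, 0.79 for Cd14, 0.73 for Lbp and 0.64 for Orm1. They were smaller still for Cp, the copper-binding ceruloplasmin (0.39), haptoglobin (Hp, 0.32), hemopexin (Hpx, 0.14), the fibrinogen alpha chain Fga (0.03) and the pentraxin Crp (0.02). Negative acute phase genes were close to their pool, at -0.03 for Alb, 0.01 for Ttr and 0.03 for Ahsg. The same array was the highest of the 20 for 16 of the 35 genes and for 4.34% of all genes kept.

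In each of the other 17 mice, 0 to 5 of the genes were at least 2-fold above the pool. Low mouse 3 of experiment 1 had 5 (Saa1, Saa2, Orm2, Orm3 and Lcn2), and medium mouse 3 and high mouse 3 of experiment 1 each had Saa1, Saa2 and Lcn2. In experiment 2, medium mouse 1 had Saa2 and Lcn2. Of all genes, those at least 2-fold above the pool made up, in experiment 2, 1.9%, 2.01% and 2.28% in the low mice, 2.63%, 2.51% and 3.03% in the medium mice, and 4.01%, 1.73% and 2.07% in the high mice. In experiment 1 these shares were 3.42% and 3.69% in the other low mice, 2.77%, 2.75% and 2.66% in the medium mice, and 3.14%, 3.77% and 3.44% in the high mice. At least 2-fold below the pool in experiment 2 were 5, 1 and 2 of the 35 genes in the low mice (2.17%, 2.56% and 1.63% of all genes), 1, 5 and 1 in the medium mice (1.86%, 1.82% and 1.57%), and 3, 2 and 4 in the high mice (2.22%, 1.86% and 1.8%). In experiment 1 they were 0, 0 and 1 in the low mice (1.69%, 3.01% and 2.96%), 0, 3 and 0 in the medium mice (1.78%, 3.07% and 3.24%), and 1, 0 and 1 in the high mice (1.43%, 4.36% and 3.93%). More of the 35 genes were thus 2-fold below than above the pool in 8 of 9 mice of experiment 2, all but medium mouse 1. In experiment 2 the same dim genes recurred among those below the pool, Il6ra, Orm3 and Socs3, each with a mean signal under 1000. Saa1, Saa2, Orm2, Lcn2 and Il1r1 were 2-fold below it in fewer mice. Each mouse was measured on 1 array, and the 9 mice of an experiment share 1 pool. A high or low value in that pool shifts all 9 differences, so these are descriptions with no test.

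**Figure D2:**
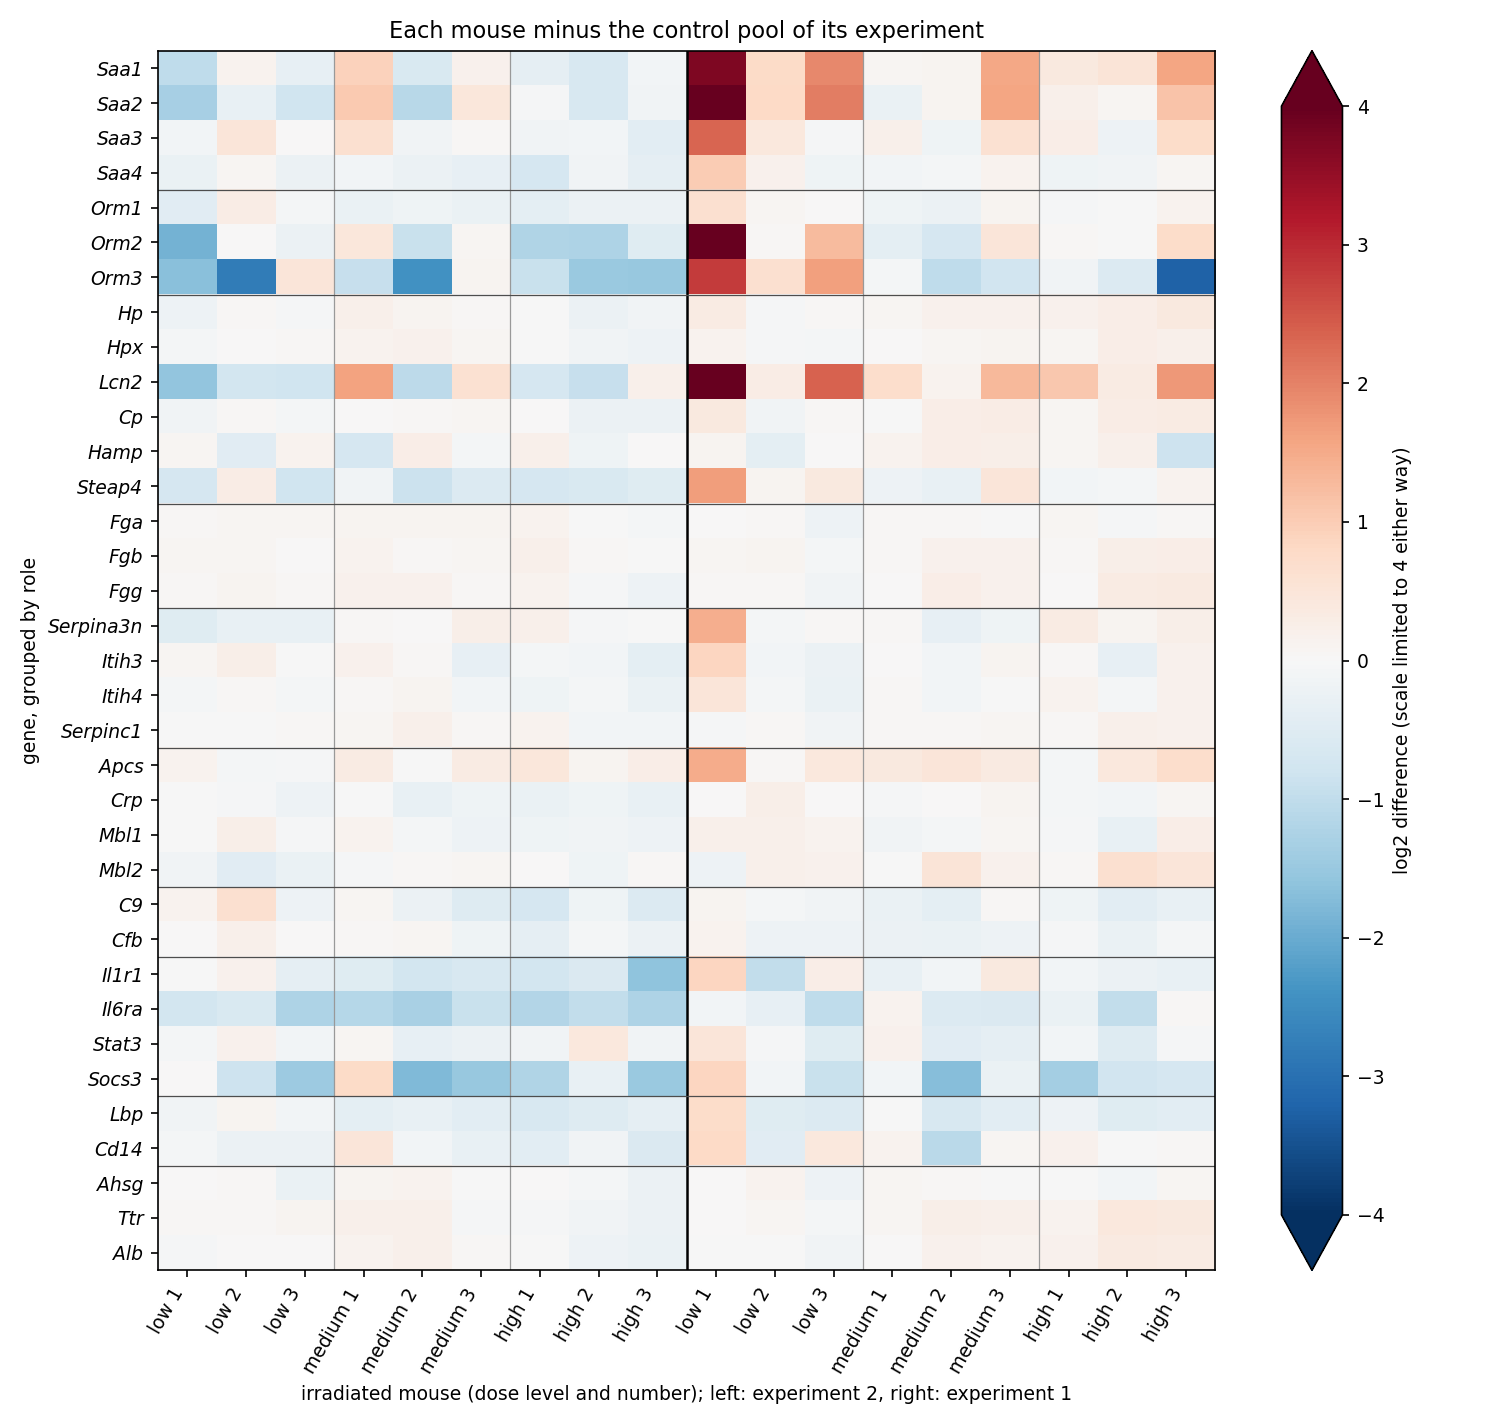
Difference of each irradiated mouse from the control pool of its experiment, as log2(signal + 7.12), for the 35 genes in rows and the 18 mice in columns, with colour for size and sign, limited to 4 either way. The column of low mouse 1 of experiment 1 holds the largest values, up to 6.08 for Lcn2.

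Of 11 neutrophil markers with a probe set, 3 had their highest signal in low mouse 1 of experiment 1 (S100a8, S100a9 and Ngp), and the others did not. S100a8 was at 2090, against 107 to 874 on the other arrays, and S100a9 at 1100, against 164 to 570. The summed signal of 11 neutrophil markers was 4060 there and at most 2100 on any other array, while 5 of the 11 lay above the median probe set over all arrays. The granule genes Elane (114), Mpo (80.9), Ltf (72) and Camp (53.6) were each below the highest of the other arrays, whereas Ngp, neutrophilic granule protein, was at 186, against 17.4 to 173 on the others. None of the 11 was at 0. By level, the summed neutrophil signal ran from 906 to 1260 in the control pools, 794 to 4060 in the low mice, 904 to 1870 in the medium mice and 1020 to 1770 in the high mice. The summed signal of 7 B cell markers was also highest in this mouse, at 12600, against at most 12100 on any other array. Of these 7, only Ighm had its highest signal there. The summed macrophage signal was 29300 there and at most 29300 on the others, and the hepatocyte sum of 344000 was the lower end of the range over all arrays, 344000 to 439000. The part of these cells in the values of the acute phase genes was not tested.

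With that mouse left out, the SD within groups was 0.88 for Lcn2, 0.70 for Orm2, 0.77 for Saa2 and 0.67 for Saa1, each still above the median of all genes kept. Over all mice, 7 of the 35 genes lay above the 90th percentile of all genes for this SD, and 19 above the median gene. Their median SD was 0.30, against 0.24 over all genes kept. The smallest values were 0.08 for Fga, 0.09 for Hpx and 0.09 for Serpinc1, the gene of antithrombin, all among the genes of highest signal.

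Saa1 and Saa2 followed Lcn2 from mouse to mouse in experiment 2, and Orm2 did so in experiment 1. Across the 9 irradiated mice, each of the 34 other genes was set against Lcn2 within each experiment, 68 relations in all, with exact permutation p-values, two-sided and adjusted over the 68. In experiment 2, Saa2 (Pearson r = 0.94, adjusted p = 0.00562; Spearman rho = 0.97, adjusted p = 0.0112) and Saa1 (r = 0.91, adjusted p = 0.0135; rho = 0.90, adjusted p = 0.046) passed by both measures (exact permutation, n = 9). In experiment 1, Orm2 passed by both measures (r = 0.99, adjusted p = 0.00646; rho = 0.93, adjusted p = 0.0255; exact permutation, n = 9). There Saa1 (r = 0.94, adjusted p = 0.0135), Saa2 (r = 0.96, adjusted p = 0.0201) and Steap4 (r = 0.95, adjusted p = 0.0446) passed by Pearson's r alone in the exact permutation test, with rho of 0.80, 0.78 and 0.80 (adjusted p = 0.146 for each). Orm2 in experiment 2 had r = 0.79 and rho = 0.78 (adjusted p = 0.0915 and 0.146, exact permutation).

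Without the 2 mice whose Lcn2 lay farthest from the median, r in experiment 2 was 0.79 for Saa2 and 0.74 for Saa1, with medium mice 1 and 3 left out. In experiment 1, with low mice 1 and 3 left out, it was 0.83 for Orm2, 0.75 for Saa1, 0.61 for Saa2 and 0.58 for Steap4. The relations were weaker without these mice, most so for Saa2 and Steap4 in experiment 1. Lcn2 was chosen for this because it had the largest spread, and the 3 dose levels were pooled within each experiment.

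**Figure D3:**
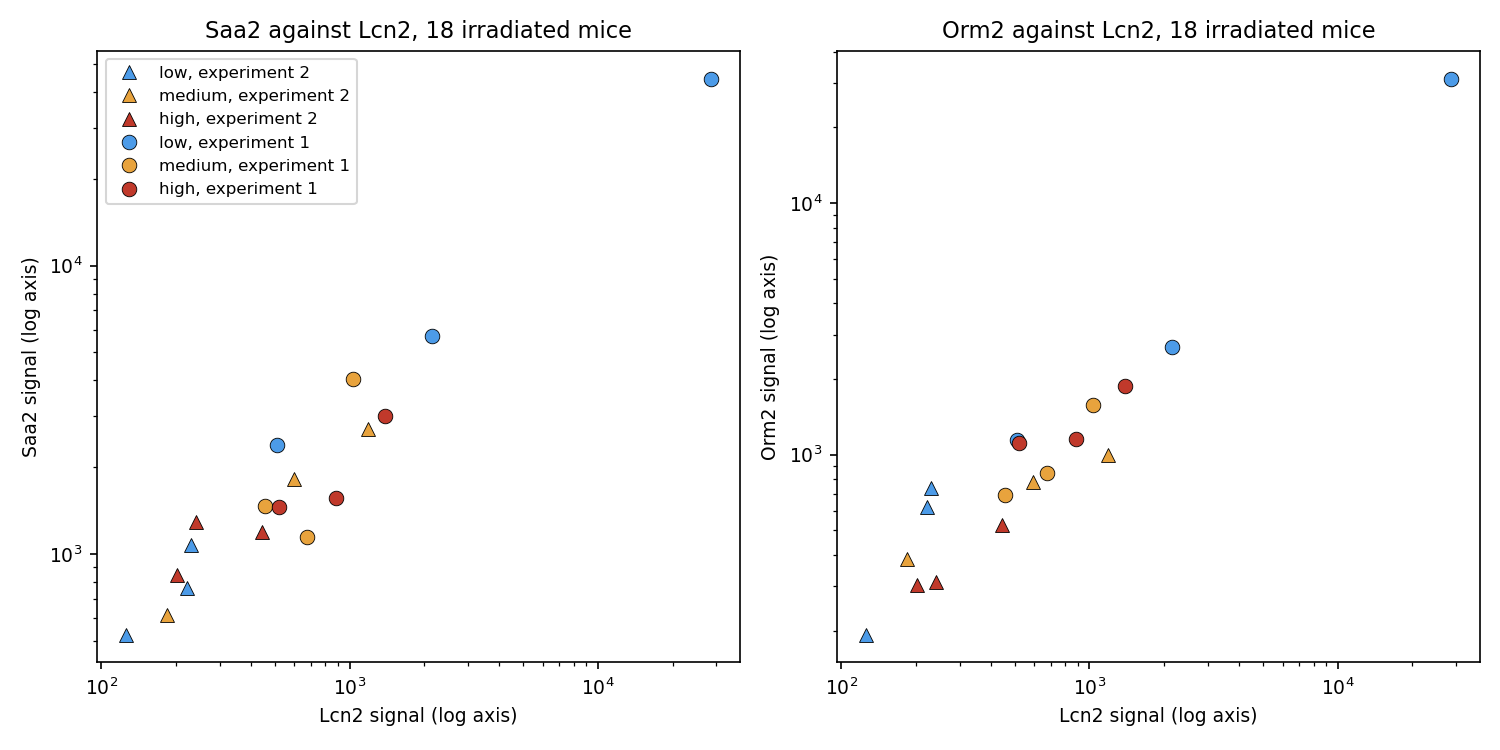
Signal of Saa2 and of Orm2 (vertical, log axes) against that of Lcn2 (horizontal, log axes), 1 point for each of the 18 irradiated mice, coloured by dose level, with triangles for experiment 2 and circles for experiment 1. Points rise from left to right, with r for Saa2 of 0.94 in experiment 2 and 0.96 in experiment 1, and the mouse at the far right is low mouse 1 of experiment 1 (Lcn2 28490).

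Against the control pools, none of the 35 genes passed an adjusted p of 0.05 at any dose level in limma with Benjamini-Hochberg adjustment over 11206 genes. In high against control 9 genes of all those tested passed (0.0803%), in medium against control 4 (0.0357%) and in low against control 1 (0.00892%). The smallest adjusted p of a member was 0.564 in high, 0.732 in medium and 0.998 in low against control. In each comparison 1 of the 35 was under an unadjusted p of 0.05, against 811, 678 and 434 of all genes (7.24%, 6.05% and 3.87%). The median log2 difference of the 35 was -0.06 in high, 0.00 in medium and 0.03 in low against control, where all genes had 0.01, 0.01 and 0.00. The sign of these medians turned when 1 array was left out, to 0.01 in high against control without the pool of experiment 2, to 0.08 in medium without the same pool (-0.09 without that of experiment 1), and in low to -0.04 without the pool of experiment 1 and to -0.03 without low mouse 1 of experiment 1. The 3 comparisons share the same pools.

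That 1 gene was Il6ra in each case, the interleukin 6 receptor subunit that binds the cytokine. In experiment 2 its signal was 383.6 in the control pool, 229.8, 250.4 and 159.3 in the low mice, 171.9, 152.4 and 205.5 in the medium mice, and 165.3, 188.8 and 160.6 in the high mice. In experiment 1 it was 285.6 in the control pool, 266.7, 225.1 and 137.1 in the low mice, 317.6, 193.4 and 187 in the medium mice, and 237.9, 142.4 and 294.8 in the high mice. All 9 mice of experiment 2 lay below their pool, and 7 of 9 did so in experiment 1. The log2 difference was -0.76 ± 0.29 (SE) in high against control (adjusted p = 0.564, 5 of 6 mice lower), -0.71 in medium (adjusted p = 0.732) and -0.67 in low (adjusted p = 0.998, 6 of 6 lower), by limma. Leaving out either pool moved these values by about the same amount on the log2 scale, in opposite directions. Without the pool of experiment 1 they were -1.08 in high, -1.03 in medium and -0.98 in low, and without that of experiment 2 they were -0.45, -0.40 and -0.36. When the pools were weighted by their number of mice, Il6ra passed in high (adjusted p = 0.0266) and medium against control (adjusted p = 0.0445), in a fit that called 374 and 267 genes in all. A second Il6ra probe set gave -0.38 in high and -0.70 in low against control.

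The 5 largest positive differences in low against control were 0.94 ± 1.06 for Lcn2, 0.91 ± 0.88 for Saa2, 0.87 ± 0.64 for Saa1, 0.66 ± 0.86 for Orm2 and 0.52 ± 0.41 for Saa3 (log2, ± SE, adjusted p = 0.998 for each by limma). Each error is of the size of the difference or close to it. Single arrays moved these differences by over 1.5 times. Without the pool of experiment 1 they were -0.02 for Lcn2, 0.16 for Saa2 and 0.18 for Saa1, and without that of experiment 2 they were 1.90, 1.67 and 1.57. Without low mouse 1 of experiment 1 they were -0.09 for Orm2 and 0.17 for Saa3. In experiment 2 alone the differences of low against control were -1.03 for Lcn2, -0.81 for Saa2, -0.70 for Orm2 and -0.40 for Saa1. The difference between the experiments in this effect was -3.94 ± 1.87 for Lcn2, -3.43 for Saa2 and -2.54 for Saa1 (experiment 2 minus experiment 1, adjusted p = 1 for Lcn2 by limma), which did not pass.

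Among receptors and regulators, Socs3 had a difference of -0.95 ± 0.56 in high against control, and Stat3, the transcription factor downstream of interleukin 6, -0.08 ± 0.21. Lbp, the lipopolysaccharide-binding protein that hands endotoxin to CD14, had -0.44 in high against control, and Cd14 -0.16. Among iron and haem genes the differences in high against control were 0.07 for Hp, 0.03 for Hpx, which binds haem, 0.05 for Cp and -0.09 for Hamp, the gene of the iron hormone hepcidin. The fibrinogen chains had differences of 0.02 (Fga), 0.13 (Fgb) and 0.10 (Fgg), and the carriers Alb, Ttr and Ahsg 0.07, 0.09 and -0.06. The 35 differences in high against control lay between -1.30 for Orm3, a dim gene, and 0.32 for Apcs. None of these passed, with adjusted p of at least 0.564 by limma.

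**Figure D4:**
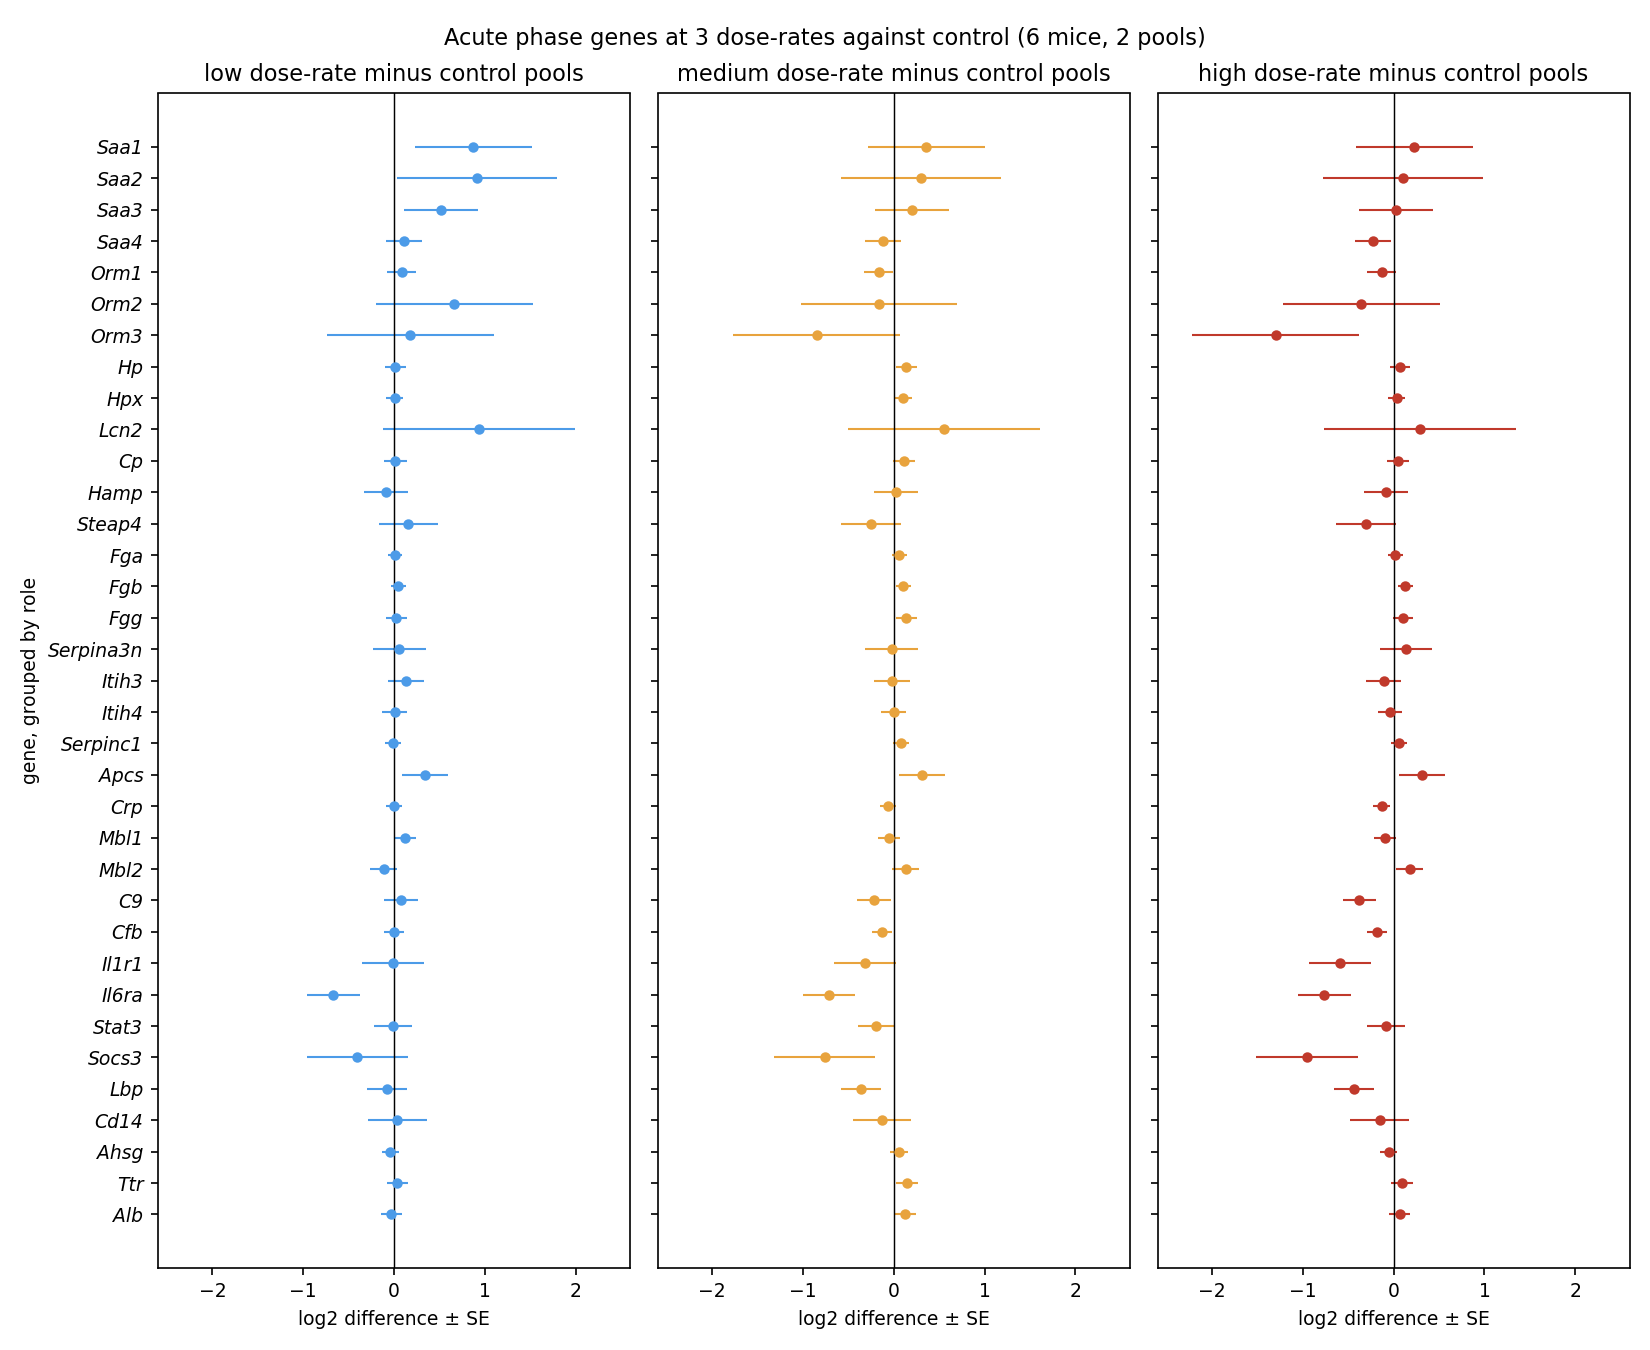
Log2 difference from control with its SE for each of the 35 genes, for low, medium and high against the control pools, from the limma fit over all 20 arrays. The intervals are widest for Lcn2, Orm2, Orm3 and Saa2 and narrowest for Fga and Fgb, and no difference passed the adjusted threshold.

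Between dose levels the comparison rests on 6 mice a level and sets no pool against the mice. In high against low, 0 of the 35 genes and 0 of 11206 genes passed (0%), although 8 of 35 were under an unadjusted p of 0.05, against 1127 of all genes (10.1%). C9, the pore-forming component of complement, had the smallest p. Its signal in experiment 2 was 19940 in the control pool, 22030, 31390 and 17230 in the low mice, 21040, 17110 and 13850 in the medium mice, and 12530, 17640 and 13780 in the high mice. In experiment 1 the C9 signal was 21260 in the control pool, 22760, 20160 and 19130 in the low mice, 17530, 16100 and 21730 in the medium mice, and 19060, 15830 and 17380 in the high mice. All 6 high mice lay below the mean of the low mice of their experiment, but 1 high mouse of experiment 2 exceeded the lowest low mouse. The difference was -0.45 ± 0.13 (adjusted p = 0.195, limma).

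The other 7 genes under an unadjusted p of 0.05 in high against low were Orm3 (-1.48), Il1r1 (-0.58), Lbp (-0.36), Saa4 (-0.33), Mbl1 (-0.22), Cfb (-0.18), the gene of complement factor B, and Mbl2 (0.29). Mbl1 and Mbl2 encode mannose-binding lectins, and their differences had opposite signs. Without low mouse 1 of experiment 1 the difference was -0.19 for Lbp and -0.17 for Saa4, and in experiment 1 all 3 high mice had more Lbp signal (3743, 3063 and 3190) than the other low mice (3027 and 2962). In experiment 2 alone Orm3 had a difference of 0.04. None of the 8 passed after adjustment by limma, with leave-one-out adjusted p of at least 0.108.

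In high against medium, 0 of 35 genes and 0 of all genes passed (0%), and 0 of 35 were under an unadjusted p of 0.05, against 424 of all genes (3.78%). In medium against low, 0 of 35 and 0 of all genes passed (0%), and 4 of 35 were under an unadjusted p of 0.05, against 891 of all genes (7.95%). These 4 were C9 (-0.30), Orm1 (-0.25), Mbl2 (0.24) and Mbl1 (-0.18). The median log2 difference of the 35 was -0.13 in high against low, -0.07 in high against medium and -0.13 in medium against low, with 0.00, -0.01 and 0.01 over all genes. Without low mouse 1 of experiment 1 the median was -0.03 in high against low (16 genes higher, 19 lower) and 0.03 in medium against low (19 higher, 16 lower). In high against medium it was -0.02 without medium mouse 1 of experiment 2, and it was -0.17 in experiment 2 alone and 0.05 in experiment 1 alone. No difference between the experiments in these contrasts passed for any gene (0%) in limma. Under an unadjusted p of 0.05 were 6 of the 35 for high against low, against 7.07% of all genes, 4 for high against medium, against 4.93%, and 6 for medium against low, against 8.88%.

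Far more genes separated the experiments than the dose levels. In experiment 2 against experiment 1, 11 of the 35 genes passed, against 42.7% of all genes kept. Of these, 5 were higher in experiment 2 and 6 lower, where 27.9% of all genes were higher and 14.8% lower. The median log2 difference of the 35 was -0.06, and that of all genes 0.07. The share of the 35 that passed was thus below the background of the whole table, with no test of that difference. The ratio of the 3′ to the 5′ Gapdh control probe sets lay between 0.871 and 0.993 on the arrays of experiment 2 and between 0.69 and 0.769 on those of experiment 1, and its part in these differences was not tested.

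The genes lower in experiment 2 were Orm1, Orm2, Lcn2, Saa2, Mbl1 and Fgb. Orm1 signal ran from 14600 to 24600 with a median of 17000 in the 9 mice of experiment 2, against 27800 to 50500 with a median of 32700 in those of experiment 1. The ranges of Orm1 in the experiments did not overlap. Its difference was -0.93 ± 0.09 (log2, SE, adjusted p = 3.78e-08, limma). Orm2 had -1.78 ± 0.47 (adjusted p = 0.00434, limma), with medians of 526 in experiment 2 and 1160 in experiment 1. Lcn2 had -1.83 ± 0.58 (adjusted p = 0.0145, limma), with medians of 230 in experiment 2 and 883 in experiment 1. Saa2 had -1.40 ± 0.48 (adjusted p = 0.023, limma), with medians of 1070 in experiment 2 and 2390 in experiment 1.

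Without low mouse 1 of experiment 1 the differences were -1.32 for Orm2, -1.28 for Lcn2 and -0.96 for Saa2, and all 3 still passed. The smaller differences were -0.44 ± 0.07 for Mbl1 (adjusted p = 1.32e-05) and -0.20 ± 0.04 for Fgb (adjusted p = 0.000866), by limma. Fgb encodes the fibrinogen beta chain, and Fgb, experiment 2 against experiment 1, did not pass once arrays were centred on their medians (-0.13, adjusted p = 0.0929, limma). Under that centring 3623 genes were higher and 1038 lower in experiment 2, against 3127 and 1659 without it. Saa1, Saa3 and Orm3 had differences of -0.77, -0.53 and -1.16 that did not pass (adjusted p = 0.083, 0.0622 and 0.0688, limma).

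The genes higher in experiment 2 were Alb, Ttr, Cp, Itih4 and Stat3. Alb had a difference of 0.25 ± 0.07, Ttr of 0.29 ± 0.07, Cp of 0.28 ± 0.07 and Itih4, an inter-alpha-inhibitor heavy chain, of 0.29 ± 0.07 (adjusted p = 0.00374, 0.00122, 0.00169 and 0.0034, limma). Medians were 74500 in experiment 2 and 63400 in experiment 1 for Alb, and 77200 and 62200 for Ttr, signals near the top of the range. Stat3 had 0.32 ± 0.11 (adjusted p = 0.0256, limma), and lost its call when low mouse 3 or high mouse 2 of experiment 1 or high mouse 2 of experiment 2 was left out (highest adjusted p = 0.0548). Other probe sets of the same genes went the opposite way for Cp (6 of 7), Stat3 (1 of 3) and Ttr (1 of 3), so these differences hold for the probe set used.

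Other genes of the response were followed in 4 lists. In acute phase signalling 26 of 28 listed genes had a probe set and 23 were tested, and none passed in any comparison with control or between levels. The smallest p-values there in high against control belonged to Socs2, an inhibitor of growth hormone signalling (-1.40 ± 0.47, adjusted p = 0.442), and Hnf4a, a hepatocyte transcription factor (-0.36 ± 0.13, adjusted p = 0.522), by limma. Of other complement genes 18 of 21 were tested, with 0 passing. C6, a component of the membrane attack complex, had -0.95 ± 0.49 and C4bp, a complement inhibitor, 0.13 ± 0.08 in high against control.

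Of coagulation and fibrinolysis genes 18 of 19 were tested and none passed, with differences in high against control of 0.10 for Serpind1, the gene of heparin cofactor II, and 0.14 for Hrg, that of histidine-rich glycoprotein. Of other secreted liver plasma proteins 23 of 27 were tested and none passed. Igfbp1, an insulin-like growth factor binding protein, had 1.10 ± 0.35 (adjusted p = 0.393, limma) and Hamp2, a second hepcidin gene, 1.07 ± 0.52 in high against control. In experiment 2 against experiment 1, where 27.9% of all genes were higher and 14.8% lower, 9 of 23 signalling genes were higher and 3 lower. The counts were 1 higher and 4 lower of 18 complement genes, 6 and 4 of 18 coagulation genes and 6 and 2 of 23 other secreted proteins.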

How the data were processed

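The authors deposited linear signal intensity for 45101 probe sets on 20 arrays. Per the submitters' processing notes it came from MAS5, of a version not given in the sources used here. Genes were named through the platform annotation where a probe set had 1 symbol, and each gene was represented by its probe set with the highest mean signal. Genes were kept where that mean reached 84.9, the median probe set. The log2 of signal + 7.12, the 10th percentile of all signals, was fitted with limma 3.58.1 in R 4.3.3, with dose level and experiment as terms over all 20 arrays, a variance trend and Benjamini-Hochberg adjustment at 0.05 over 11206 genes. A fold on this scale understates the change of dim genes. Differences between experiments in a dose contrast came from a limma fit of 8 group means.

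Simulated data of 11206 genes had normal noise with each gene's SD within irradiated groups, and the pools were given that same SD. Only the high level was shifted, by the same amount in both experiments. There, high against control found 69 of 100 simulated 2-fold changes and 90 of 100 simulated 4-fold changes, with 4 false calls. These rates were not broken down by spread. They cannot be taken for genes of large spread such as Lcn2, with an SD within groups of 1.4 (99.9th percentile). Each mouse was measured once, so p-values in limma measure the spread between mice and between arrays together, and for the pools the spread is assumed. In experiment 2 against experiment 1 they do not measure the spread between repeats of an experiment, which these arrays do not give. Promoter letters were searched by text matching in Python, and promoters were aligned with Biopython 1.88. Ranks for Spearman's rho came from scipy 1.17.1, and correlation p-values from all permutations of the mice. Values on every array are given for the 8 genes with the largest SD within irradiated groups and for genes on which a comparison turns, and from each further list up to 2 genes with the smallest p in high against control are named. The genes and lists were chosen with earlier results of these data known. Alternatives were other pseudocounts, filters, normalizations, weights, probe sets, and arrays or experiments left out.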

Additional observations from a re-analysis of the deposited data

Results flagged for a closer look

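Within each dose level, the differences of the 6 mice from their pools were screened for a highest or lowest mouse that stood apart. The rule was that its gap to the nearest mouse, divided by the range of the 6, exceeded Dixon's 95% critical value. Of 105 groups (35 genes at 3 levels) 12 held such a mouse, where chance gives about 1 in 20 groups drawn from a single normal distribution. The 6 mice of a level come from 2 experiments with different pools, so that rate need not hold here. The groups are also not independent because the same mice recur. Low mouse 1 of experiment 1 accounted for 5 of the 12, with log2 differences of 2.34 for Saa3, 1.50 for Apcs, 1.46 for Serpina3n, 1.01 for Saa4 and 0.39 for Cp. The larger differences of Lcn2, Saa2, Orm2 and Saa1 in that mouse did not stand apart by this rule, as the other 5 low mice also ranged widely.

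The other 7 were smaller. Hamp, the hepcidin gene, was at -0.84 in high mouse 3 of experiment 1 and at -0.67 in medium mouse 1 of experiment 2, each the lowest of its level. Medium mouse 1 of experiment 2 was also the highest mouse of experiment 2 for Lcn2, Saa1 and Saa2. In low mouse 3 of experiment 1, Fga was at -0.21 and Fgg at -0.14. Orm1 was at 0.10 in medium mouse 3 of experiment 1. In medium mouse 2 of experiment 2, Serpinc1 was at 0.20 and Apcs at -0.01.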

How the results depend on the processing

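No member passed in any contrast between levels or with control under the alternatives run, with one exception, Il6ra with the pools weighted by mice. That weighting gave 374 genes in high against control, 267 in medium against control and 46 in low against control, with 1 member in each of the first 2. Counts in high against control were 5 with no variance trend and 3 with no experiment term, and in medium against control 2 with median-centred arrays and 1 with no variance trend. Low against control gave 0 with the pseudocount at the 25th percentile, without a filter, under quantile normalization and over the top 30% of probe sets. Within a single experiment a contrast with control rests on 1 pool, so no counts are given for experiment 2 alone or experiment 1 alone. High against low gave 1 with quantile normalization, median-centred arrays, experiment 2 alone or the replicate block, and 2 with no variance trend. The difference between experiments in medium against low gave 3 with median-centred arrays.

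With each array left out in turn, high against control gave 0 to 22 genes, medium against control 0 to 20, low against control 0 to 13 and high against low 0 to 20. The difference between experiments in these contrasts gave 0 to 2 in high against low, 0 to 1 in high against medium and 0 to 12 in medium against low. The count was highest without the pool of experiment 2 and 0 without that of experiment 1 in all 3 contrasts with control. Experiment 2 against experiment 1 gave 4513 to 4735 genes and 10 to 14 members.

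Signs turned for Lcn2, low against control (-0.021 without the pool of experiment 1 to 1.899 without that of experiment 2, and -1.03 in experiment 2 alone), Orm2, low against control (-0.091 without low mouse 1 of experiment 1 to 1.315 without the pool of experiment 2, and -0.70 in experiment 2 alone), Saa2, low against control (-0.81 in experiment 2 alone), Saa1, low against control (-0.40 in experiment 2 alone) and Orm3, high against low (0.041 in experiment 2 alone). The median over the 35 genes also turned, to 0.03 in medium against low without low mouse 1 of experiment 1. The cause was not tested. Whether replicate numbers pair the mice was not settled. Of 18 same-numbered pairs, 7 correlated over 0.1 (range -0.154 to 0.307), and no differently numbered pairs were computed for comparison. The replicate block brought no member past the threshold. With 2 pools and 6 mice a level, differences of the size seen in Lcn2 and the serum amyloids are within the error, and dim genes such as Orm3 are limited by signal over background.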
